A study of Canis lupus familiaris with 45 samples.

Results

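The SLC25 genes encode the mitochondrial carriers, the protein family that moves nucleotides, phosphate, organic acids, amino acids, coenzymes and metal ions across the inner mitochondrial membrane. The members described here were all genes whose probe sets carry a single platform gene symbol starting with SLC25A, with SLC25A1 left out. The array held 40 such genes with 83 probe sets, among 15115 genes with 1 symbol and 42924 probe sets that are not array controls. Of each gene's probe sets, the 1 brightest on average across the 45 arrays stood for the gene. The mean was below log2 4 for 16 genes, and 26 genes passed the filter on dim values, a log2 value above 4 on at least 4 arrays. Of the 16 dim genes, SLC25A23 (mean 3.97) and SLC25A34 (mean 3.12) passed it. The other 14 were not tested: SLC25A15, SLC25A18, SLC25A25, SLC25A28, SLC25A29, SLC25A31, SLC25A35, SLC25A41, SLC25A42, SLC25A44, SLC25A45, SLC25A47, SLC25A48 and SLC25A53, with means of 1.20 to 3.61. No probe set carried the single symbol SLC25A10 or SLC25A20, so these genes could not be analysed here.

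Subcutaneous adipose tissue was sampled from 9 intact female beagles, 4 years old, at weeks 0, 4, 8, 12 and 24, and hybridised to canine Affymetrix arrays, 1 array per dog and week. The ad libitum dogs, animals 2, 5, 6, 7 and 8 (n = 5), ate freely after the week-0 sample. The control dogs, animals 1, 3, 4 and 9 (n = 4), received the amount that kept their baseline body weight. Every dog ate the same Purina Pro Plan Performance food, had been assigned to its group at random and was sampled after a night without food. The dogs are the replicates. The p-values use 1 estimate of the spread per probe set, pooled over both groups and all weeks and moderated across probe sets. They do not measure the spread within 1 group and week. Values are the authors' GCRMA expression values, read here as log2, and a difference of 1 is a change of 2-fold. Values of different genes come from different probe sets and are not compared with each other as levels.

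Mitochondrial carriers are encoded in the nucleus and brought into the inner membrane by a dedicated import route. The adenine nucleotide carriers exchange ADP for ATP, and the phosphate carrier supplies the phosphate that ATP synthase needs. In fat cells, carriers of the malate-aspartate shuttle bring reducing equivalents into mitochondria, and others supply the matrix with coenzymes, nucleotides and iron.

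Before the comparisons, some arrays stood apart. The mean of 23 skeletal muscle genes was 7.56 to 14.42 on 10 arrays and 3.71 to 5.38 on the other 35. The 10 were 5 of 25 ad libitum arrays and 5 of 20 control arrays, and 5 of them were week-0 arrays. At week 24 none of the 5 ad libitum dogs was among them, against control dogs 3 and 4 with means of 10.74 and 9.46. Control dog 4 at week 24 also had a mean of 11.57 over 3 epithelial marker genes, against 2.84 to 3.29 on the other week-24 arrays. All 11 adipocyte genes were measured, with means of 11.34 to 13.76 on the 45 arrays. In a check of identity from 100 probe sets, 43 of 45 arrays matched the labelled dog, and the week-8 arrays labelled ad libitum dog 5 and control dog 9 each matched the other dog. The actin 3' minus 5' value, a measure of RNA quality that is higher for degraded RNA, was 3.51 ± 0.91 in ad libitum dogs and 4.79 ± 1.20 in control dogs at week 24 (SD, n = 5 and 4). In pieces of tissue, fewer cells of a type and less RNA per cell cannot be told apart.

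At week 24, SLC25A33 and SLC25A5 were higher in ad libitum dogs than in control dogs, and SLC25A37 was lower. These were the 3 of 26 tested carriers past an adjusted p of 0.05 in limma's moderated test (11.5%), where 5.46% of all 22690 tested probe sets passed. By direction, 2 carriers were called higher, against 3.76% of all probe sets, and 1 was called lower, against 1.69%. The difference was positive for 18 carriers and negative for 8, with a median of 0.25, where the median of all tested probe sets was 0.01. An unadjusted p under 0.05 was reached by 9 carriers, and by 22.7% of all tested probe sets. The 5 ad libitum and the 4 control values did not overlap for 5 carriers, namely SLC25A5, SLC25A16 and SLC25A46 on the higher side and SLC25A37 and SLC25A23 on the lower side. Among all tested probe sets 9.75% did not overlap, 5.41% on the higher and 4.34% on the lower side.

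The 3 calls rested on few dogs. Without ad libitum dog 2, control dog 3 or control dog 4, 0 carriers were called, and without ad libitum dog 6 or 7 only SLC25A5 was called. Without ad libitum dog 5, 9 were called. With the arrays of week 24 alone, which do not share the spread of other weeks, 0 were called. None was called without the 10 arrays with muscle transcripts, which left 2 control dogs at week 24, or with a covariate for the actin 3' minus 5' value, called the actin covariate from here. The shares of all tested probe sets called in these settings are not given here, so these counts are not read as particular to the carriers.

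**Figure D1:**
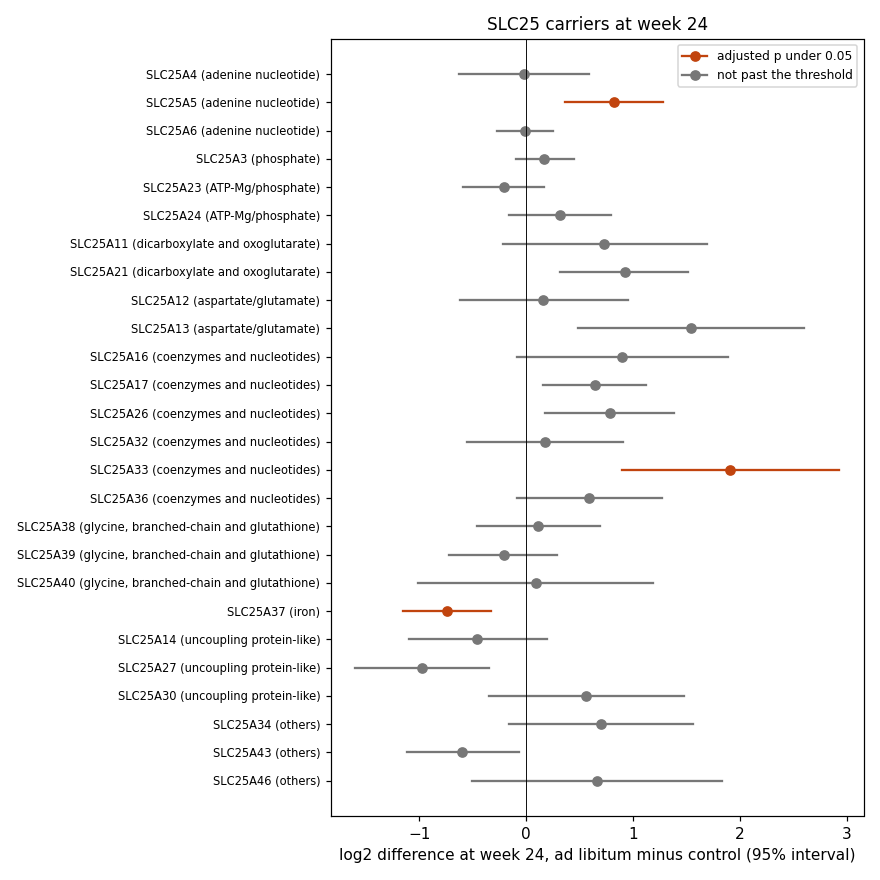
Fitted log2 difference at week 24, ad libitum minus control, of the 26 tested carriers grouped by what they carry (5 ad libitum and 4 control dogs). Points are estimates and bars 95% intervals, and the 3 carriers past the threshold, SLC25A5, SLC25A33 and SLC25A37, are in orange.

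SLC25A33 carries pyrimidine nucleotides into mitochondria, and in cultured human cells its transcript is induced by insulin and insulin-like growth factor 1. At week 24 it measured 11.66, 8.66, 10.27, 10.61 and 10.81 in ad libitum dogs 2, 5, 6, 7 and 8. In control dogs 1, 3, 4 and 9 it measured 9.18, 7.82, 8.05 and 8.89. Of the ad libitum dogs, 4 lay above every control dog, and dog 5 lay within the control range. The means were 10.40 ± 1.10 in ad libitum dogs and 8.49 ± 0.65 in control dogs (SD, n = 5 and 4), a difference of 1.91 (SE 0.50, 3.77-fold, adjusted p = 0.0207). The pair of control arrays with muscle transcripts had the lowest values, and the difference without all 10 such arrays was 1.45 (adjusted p = 0.292). With the actin covariate it was also 1.45 (adjusted p = 0.338), and without ad libitum dog 2 it was 1.60 (adjusted p = 0.112). It was 1.69 to 1.95 without control dog 3 or 4 or ad libitum dog 6 or 7, each with an adjusted p of 0.0579 to 0.0732.

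The other tested carriers of coenzymes and nucleotides all had positive differences at week 24, and none of these 5 passed the threshold. SLC25A26, which imports the methyl donor S-adenosylmethionine, measured 8.24 ± 0.45 in ad libitum dogs and 7.46 ± 0.23 in control dogs, a difference of 0.78 (adjusted p = 0.109). Its second, dimmer probe set measured 4.29 in ad libitum dogs and 4.26 in control dogs, a difference of 0.03 (adjusted p = 0.986). SLC25A17, a peroxisomal carrier of coenzyme A, FAD and NAD, differed by 0.64 (adjusted p = 0.10). SLC25A16, which is linked to mitochondrial coenzyme A, measured 7.23 to 8.30 in ad libitum dogs and 6.31 to 7.21 in control dogs, without overlap, at a difference of 0.90 (adjusted p = 0.272). SLC25A36, the second pyrimidine nucleotide carrier, differed by 0.59 (adjusted p = 0.299), and SLC25A32, a carrier of folate and FAD, by 0.18 (adjusted p = 0.819).

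SLC25A5 encodes an ADP/ATP carrier, 1 of 3 adenine nucleotide carriers that were tested. At week 24 it measured 12.67, 11.95, 11.73, 11.62 and 12.04 in ad libitum dogs 2, 5, 6, 7 and 8, against 11.44, 11.03, 10.93 and 11.33 in control dogs 1, 3, 4 and 9. Every ad libitum dog was above every control dog, by as little as 0.18 between ad libitum dog 7 and control dog 1. The means were 12.00 ± 0.41 in ad libitum dogs and 11.18 ± 0.24 in control dogs (SD, n = 5 and 4), a difference of 0.82 (SE 0.23, 1.76-fold, adjusted p = 0.0298). The difference was 0.64 without the arrays with muscle transcripts (adjusted p = 0.225), 0.53 with the actin covariate (adjusted p = 0.458) and 0.69 with the muscle mean as a covariate (adjusted p = 0.0563). The call was also lost without ad libitum dog 2 (0.65) and without control dogs 3 (0.77), 4 (0.74) or 9 (0.87), 1 at a time.

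The other ADP/ATP carriers had estimates near 0 at week 24. SLC25A4, the isoform that predominates in heart and skeletal muscle, measured 13.68 ± 0.58 in ad libitum dogs and 13.71 ± 0.30 in control dogs, a difference of -0.02 (95% interval -0.63 to 0.59). SLC25A6 measured 15.03 ± 0.13 in ad libitum dogs and 15.04 ± 0.17 in control dogs, a difference of -0.01 (95% interval -0.27 to 0.25). Neither sign is firm, since the SLC25A4 difference was 0.24 without the arrays with muscle transcripts and the SLC25A6 difference 0.02 after quantile normalization. SLC25A3, the phosphate carrier, measured 14.99 ± 0.27 in ad libitum dogs and 14.81 ± 0.13 in control dogs, a difference of 0.17 (95% interval -0.10 to 0.45, adjusted p = 0.457). The calcium-regulated ATP-Mg/phosphate carriers SLC25A24 and SLC25A23 differed by 0.32 and -0.21, with adjusted p of 0.444 and 0.525. SLC25A23 was near background, at 3.69 to 3.85 in ad libitum dogs and 3.87 to 4.21 in control dogs.

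SLC25A37 encodes mitoferrin-1, which brings iron into mitochondria for haem and iron-sulphur cluster synthesis. At week 24 it measured 7.57, 8.28, 7.85, 7.90 and 7.91 in ad libitum dogs 2, 5, 6, 7 and 8. In control dogs 1, 3, 4 and 9 it measured 8.95, 8.57, 8.67 and 8.38. Every ad libitum dog was below every control dog, and dog 5 was the closest to them. The means were 7.90 ± 0.25 in ad libitum dogs and 8.64 ± 0.24 in control dogs (SD, n = 5 and 4), a difference of -0.74 (SE 0.20, 1.67-fold, adjusted p = 0.0287). A second SLC25A37 probe set differed by -0.43 (adjusted p = 0.186). The size of the SLC25A37 difference was about the same without the arrays with muscle transcripts (-0.78), where its adjusted p was 0.180. With the actin covariate it was -0.63 (adjusted p = 0.318). Leaving out any 1 dog other than ad libitum dog 5 and control dog 9 ended the call, with differences of -0.64 to -0.76 and adjusted p of 0.0569 to 0.118. SLC25A28, mitoferrin-2, was below the filter, with a mean of 3.61.

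**Figure D2:**
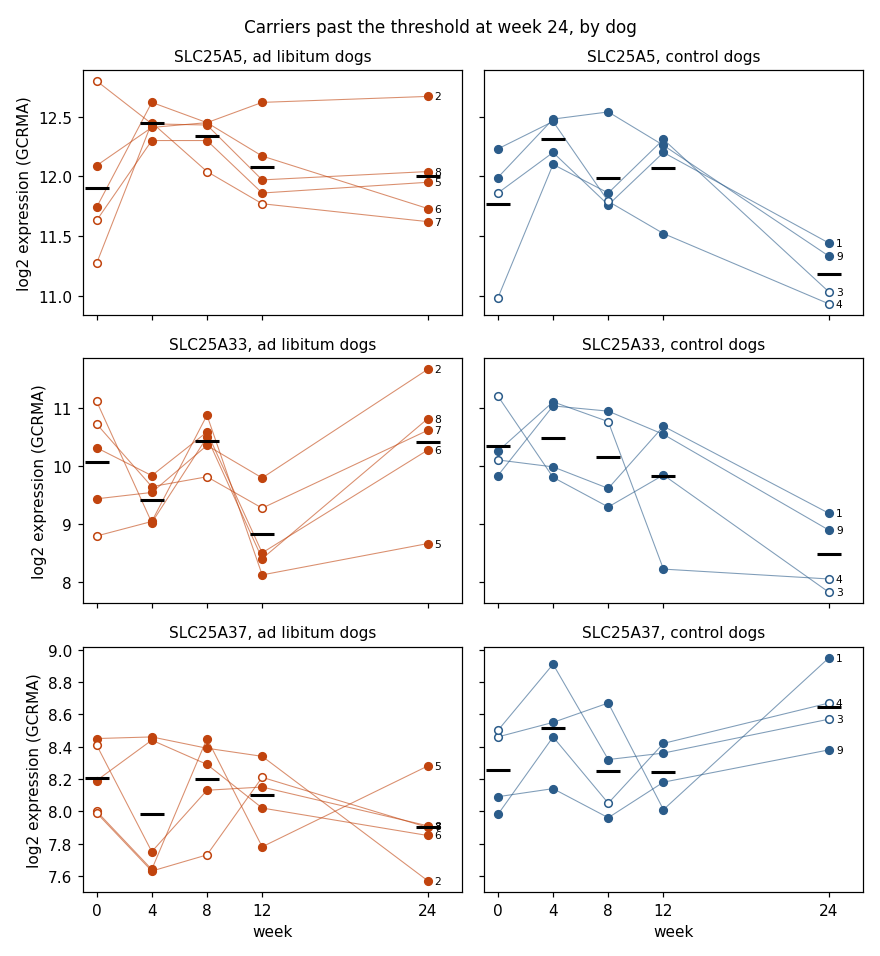
GCRMA log2 expression of SLC25A5, SLC25A33 and SLC25A37 by week in each ad libitum dog (left) and each control dog (right). Lines join the arrays of 1 dog, open circles mark the 10 arrays with muscle transcripts, black bars are group means, and the numbers at week 24 are the dogs. For SLC25A33 the mean at week 24 was 10.40 in ad libitum dogs and 8.49 in control dogs.

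Carriers of the malate-aspartate shuttle had positive differences at week 24 that did not pass the threshold. SLC25A13, an aspartate/glutamate carrier also called citrin, measured 8.78, 5.32, 6.82, 6.55 and 7.10 in ad libitum dogs 2, 5, 6, 7 and 8, against 6.44, 5.11, 5.11 and 4.83 in control dogs 1, 3, 4 and 9. Ad libitum dog 2 was far above the rest, and dog 5 lay below control dog 1. The difference was 1.54 (SE 0.52, 2.91-fold, adjusted p = 0.0725). It was 1.07 without ad libitum dog 2 (adjusted p = 0.284) and 0.82 with the actin covariate (adjusted p = 0.637). Without ad libitum dog 5 it was 1.94 and without control dog 1 it was 1.90, and both of these passed the threshold.

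SLC25A12, the other aspartate/glutamate carrier, measured 9.44 ± 0.18 in ad libitum dogs and 9.28 ± 0.38 in control dogs, a difference of 0.16 (adjusted p = 0.847). SLC25A11, which exchanges malate for oxoglutarate, measured 8.84 ± 0.89 in ad libitum dogs and 8.10 ± 0.24 in control dogs, a difference of 0.73 (adjusted p = 0.362). SLC25A21, a carrier of oxodicarboxylates used in lysine and tryptophan breakdown, measured 4.78 to 6.67 in ad libitum dogs and 4.63 to 4.95 in control dogs, a difference of 0.92 (SE 0.29, adjusted p = 0.0564). Its second, dimmer probe set differed by 1.33 and did pass (adjusted p = 0.0457).

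Among the uncoupling protein-like carriers, SLC25A27 measured 4.76, 6.33, 4.90, 4.70 and 4.53 in ad libitum dogs 2, 5, 6, 7 and 8, against 6.20, 6.03, 6.10 and 5.75 in control dogs 1, 3, 4 and 9. All but dog 5 of the ad libitum dogs were below every control dog. The difference was -0.98 (SE 0.31, adjusted p = 0.0553), and it passed the threshold without dog 5. A second, dimmer SLC25A27 probe set differed by -0.16 (adjusted p = 0.816). SLC25A14 differed by -0.46 (adjusted p = 0.405) and SLC25A30 by 0.56 (adjusted p = 0.477).

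SLC25A38, which carries glycine for haem synthesis, differed by 0.11 at week 24 (95% interval -0.46 to 0.69). The glutathione carriers SLC25A39 and SLC25A40 differed by -0.21 (95% interval -0.72 to 0.29) and 0.09 (95% interval -1.01 to 1.19), and none of these passed the threshold. SLC25A46, an outer membrane protein that helps to set mitochondrial shape, measured 9.46 to 9.81 in ad libitum dogs and 8.75 to 9.11 in control dogs. These did not overlap, but the spread over all weeks was wide and the difference of 0.66 (SE 0.58) had an adjusted p of 0.522. SLC25A43 differed by -0.60 (adjusted p = 0.164), while its other tested probe sets, which are dimmer, differed by -0.05 and 0.07. SLC25A34 was near background in all but ad libitum dog 2, which measured 6.02, and its difference was 0.70 (adjusted p = 0.327).

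Of the 83 probe sets of the 40 genes, 53 were tested, and 5 passed the threshold at week 24. They were those of SLC25A5, SLC25A33 and SLC25A37, the second of SLC25A21 and a second of SLC25A34. The last had a mean of 2.44 over the 45 arrays and was at background in control dogs, so its difference is not given. Of 19 genes with more than 1 tested probe set, 14 had differences of a single sign and 5 of both signs. The 5 were SLC25A4, SLC25A6, SLC25A14, SLC25A40 and SLC25A43.

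Other genes of the same mitochondrial steps were counted from lists, beside all tested probe sets, of which 50.7% were higher in ad libitum dogs at week 24, with a median of 0.01, and 3.76% were called higher. Of 10 tested genes for the import of carriers, 9 were higher in ad libitum dogs at week 24 with a median of 0.27, and 1 passed the threshold. It was TIMM22, the channel that inserts carriers into the inner membrane, at 8.66 ± 0.38 in ad libitum dogs and 7.44 ± 0.82 in control dogs (difference 1.23, adjusted p = 0.0441). Its companions TIMM10B, TIMM8B and TIMM10 differed by 0.68, 0.43 and 0.41, with adjusted p of 0.0789, 0.107 and 0.275. Of 20 tested partners of the carriers, 14 were higher with a median of 0.36, and 3 passed, all higher. MPC2 and MPC1, the subunits of the mitochondrial pyruvate carrier, were higher by 1.18 (adjusted p = 0.00481) and 1.13 (adjusted p = 0.0161). MDH1, the cytosolic malate dehydrogenase of the malate-aspartate shuttle, was higher by 0.42 (adjusted p = 0.0447), and GPD1 differed by 1.12 (adjusted p = 0.0564).

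Of 6 tested regulators of mitochondrial content, 4 were higher with a median of 0.76, and limma called 0, with ESRRA at 1.45, PPARGC1A at 1.20, PPARGC1B at 0.84 and PPRC1 at -0.78. Of these, ESRRA, PPRC1 and PPARGC1B had unadjusted p of 0.0191, 0.0209 and 0.0340, and PPARGC1A 0.0661. An unadjusted p under 0.05 was reached by 22.7% of all tested probe sets. ESRRA measured 5.31 in ad libitum dogs and 3.86 in control dogs, PPARGC1A 5.87 and 4.67, and PPARGC1B 5.83 and 4.99. These genes lay near background in control dogs, while PPRC1, at 8.84 and 9.62, did not. Without the arrays with muscle transcripts, and likewise with the actin covariate, 0 genes of the import and partner lists passed. The genes with positive differences in these settings were 9 and 8 of 10 for import, and 15 of 20 for the partners in both. The share of all tested probe sets with positive differences in these settings is not given here. At week 12 the list medians were -0.25 for import, -0.19 for partners and -0.53 for regulators, against -0.02 for all tested probe sets. Less the week-0 difference, the week-24 medians were 0.23, 0.46 and 0.45, against 0.01 for all, and 0 genes of the lists were called. Averaged over weeks 4 to 24, less that at week 0, they were -0.04, 0.17 and -0.08.

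At week 12, limma called 0 of 26 carriers, where 0.00441% of all tested probe sets passed. An unadjusted p under 0.05 was reached by 4 carriers, and by 11.1% of all tested probe sets. SLC25A46 and SLC25A40 had positive differences of 1.55 and 1.27 (adjusted p = 0.451 for both), with a wide spread in control dogs. SLC25A46 measured 7.42 to 9.11 in ad libitum dogs and 5.24 to 9.35 in control dogs. SLC25A33 had a difference of -1.42 (SE 0.54, adjusted p = 0.451) at week 12, opposite in sign to that at week 24. It measured 9.79, 8.12, 8.50, 9.27 and 8.40 in ad libitum dogs 2, 5, 6, 7 and 8, against 10.68, 9.84, 8.22 and 10.54 in control dogs 1, 3, 4 and 9, and the groups overlapped only through control dog 4. SLC25A30 had a difference of -1.34 (SE 0.49) and SLC25A4 of -0.65 (SE 0.32), while SLC25A24 had 0.50 (SE 0.25).

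At week 8 limma called 0 carriers, against 1.42% of all tested probe sets, and 5 had an unadjusted p under 0.05, against 25% of all. SLC25A40 came closest, at 6.22 to 7.92 in ad libitum dogs and 8.17 to 9.13 in control dogs, without overlap (difference -1.56, SE 0.54, adjusted p = 0.0896). SLC25A27 also did not overlap, at 4.34 to 4.74 in ad libitum dogs and 4.75 to 6.14 in control dogs (difference -0.74, adjusted p = 0.140). Of all tested probe sets, 3.76% did not overlap at week 8. SLC25A46 differed by -1.38, SLC25A26 by 0.71, SLC25A38 by 0.65 and SLC25A34 by 0.74, with adjusted p of 0.141, 0.143, 0.154 and 0.266. The arrays labelled ad libitum dog 5 and control dog 9 each matched the other dog at this week. They measured 6.22 and 8.17 for SLC25A40, and 4.70 and 4.95 for SLC25A27, and with their labels exchanged both genes would overlap between the groups. Without both arrays the differences were -1.10 for SLC25A40 (adjusted p = 0.409), -0.70 for SLC25A27 (adjusted p = 0.381) and -0.70 for SLC25A46 (adjusted p = 0.644), and the count was still 0.

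At week 4 limma called 0 carriers, against 0.0132% of all tested probe sets, and 3 had an unadjusted p under 0.05, against 9.08% of all. SLC25A46 differed by 1.44, SLC25A37 by -0.55 and SLC25A30 by -1.18, with adjusted p of 0.536, 0.507 and 0.522. SLC25A32 and SLC25A17 differed by 0.61 and -0.55. The ad libitum arrays of week 4 were in batches 3 to 5 and the control arrays in batches 1 and 2, so no within-batch value could be given, and the fitted differences rest on batch effects estimated from other weeks. Without the batch term SLC25A30 differed by -0.56 and SLC25A17 by -0.17. SLC25A12 had a fitted difference of 0.64, but its means were 8.68 in ad libitum dogs and 9.11 in control dogs, and its difference was -0.43 without that term. At week 4 the actin 3' minus 5' value was 1.75 ± 0.24 in ad libitum dogs and 3.00 ± 0.27 in control dogs (SD, n = 5 and 4).

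At week 0, before the feeding change, limma called 0 carriers and 0% of all tested probe sets, and SLC25A17, at 0.58 (SE 0.24, adjusted p = 1.00), was the 1 carrier with an unadjusted p under 0.05, against 1.38% of all. SLC25A16 and SLC25A5 differed by 0.70 and 0.28, and SLC25A12, SLC25A4 and SLC25A3 by -0.64, -0.49 and -0.15. The SLC25A5 and SLC25A12 values changed sign without the arrays with muscle transcripts, to -0.15 and 0.06. The groups overlapped for all 26 carriers at weeks 0, 4 and 12, where 0.207%, 4.74% and 1.60% of all tested probe sets did not overlap.

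**Figure D3:**
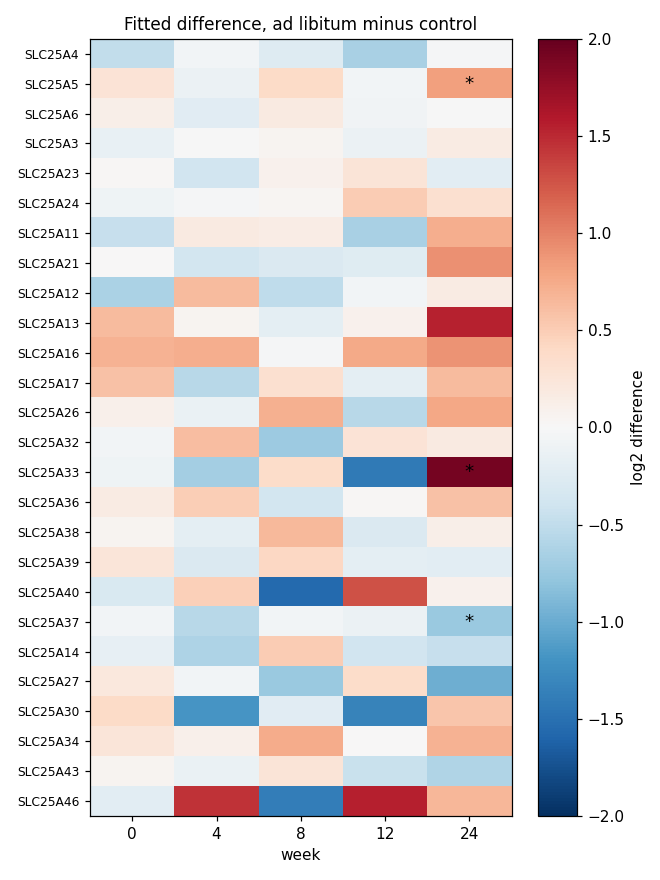
Fitted log2 difference, ad libitum minus control, of the 26 tested carriers (down the page, by what they carry) at weeks 0, 4, 8, 12 and 24. Red is higher in ad libitum dogs, blue is lower, and asterisks mark the 3 differences past the threshold, all at week 24. The SLC25A33 difference is -1.42 at week 12 and 1.91 at week 24.

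The feeding effect at a week, the difference between groups less the same difference at week 0, was called for 0 carriers at week 24 by limma, against 0.0220% of all tested probe sets. An unadjusted p under 0.05 was reached by 4 carriers and 10.2% of all. SLC25A33 had the smallest p of the carriers, with a feeding effect of 2.00 (SE 0.71, adjusted p = 0.334). Its change from week 0 was 0.28 in ad libitum dogs (SE 0.48) and -1.72 in control dogs (SE 0.53). SLC25A27, SLC25A37 and SLC25A43 had feeding effects of -1.19, -0.69 and -0.64, and SLC25A11 and SLC25A21 of 1.19 and 0.92, with adjusted p of 0.362 to 0.558. SLC25A5, called in the direct comparison, had a feeding effect of 0.54 (SE 0.32, adjusted p = 0.572).

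Averaged over weeks 4 to 24, the feeding effect was called for 0 carriers and 0% of all tested probe sets. An unadjusted p under 0.05 was reached by 0 carriers and 4.23% of all. SLC25A12, SLC25A46 and SLC25A3 had averages of 0.70, 0.78 and 0.17, and SLC25A30, SLC25A27 and SLC25A17 of -0.92, -0.56 and -0.53. The SLC25A12 average was -0.01 without the arrays with muscle transcripts and -0.30 without control dog 3. The SLC25A46 average was 0.06 without ad libitum dog 8 and 1.38 without control dog 1. The joint test of the 4 weekly feeding effects, limma's moderated F, called 0 carriers and 0.0132% of all tested probe sets. It gave 8 carriers an unadjusted p under 0.05, against 23.3% of all, with SLC25A33 lowest at an adjusted p of 0.132. At the single weeks 4, 8 and 12 the feeding effect was called for 0 carriers and 0% of all tested probe sets, with 3, 1 and 2 carriers at an unadjusted p under 0.05, against 7.81%, 8.66% and 5.35% of all.

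Changes from week 0 within a group set week 24, all in batch 6, against arrays of batches 1 to 5, so week 24 and its batch cannot be told apart there. In ad libitum dogs 1 of 26 carriers was called at week 24, and it was higher, against 4.78% of all tested probe sets called and 2.38% called higher. SLC25A36 measured 9.65, 9.38, 9.85, 9.82 and 10.05 in dogs 2, 5, 6, 7 and 8 at week 24, against 8.21, 9.59, 7.75, 9.02 and 8.13 at week 0. It was higher at week 24 in 4 of 5 dogs, all but dog 5. The fitted change was 1.14 (SE 0.32, 2.20-fold, adjusted p = 0.0352), against 0.71 in control dogs (SE 0.35, adjusted p = 0.208), and the feeding effect, the test of that difference, was 0.42 (SE 0.48, adjusted p = 0.788). The call was lost without dog 2, 6, 7 or 8, where the change was 0.74 to 1.20, and without the arrays with muscle transcripts, where it was 1.32. With the dog as a fixed replicate block it was 1.13 (adjusted p = 0.0511).

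In ad libitum dogs, SLC25A24 was higher at week 24 in 5 of 5 dogs, by 0.44 to 0.93, with a fitted value of 0.63 (adjusted p = 0.0948). SLC25A16 was also higher in 5 of 5, by 0.29 to 1.31 (fitted 0.92, adjusted p = 0.247). SLC25A23, near background, was lower in 5 of 5. The share of all tested probe sets that moved 1 way in 5 of 5 dogs was not computed. SLC25A46 had a change of 1.17 (adjusted p = 0.209). SLC25A30 had a change of -1.22 (adjusted p = 0.0909), and SLC25A11, SLC25A39 and SLC25A37 of -0.86, -0.39 and -0.31. The SLC25A11 value was -0.05 without the arrays with muscle transcripts, 3 of which were week-0 arrays of ad libitum dogs.

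In control dogs 4 of 26 carriers were called at week 24 against week 0, where 7.92% of all tested probe sets were. Of the 4, 3 were lower and 1 was higher, against 4.71% and 3.21% of all. SLC25A11 fell by 2.05 (SE 0.50, adjusted p = 0.0109), at 7.87, 8.44, 8.01 and 8.09 in dogs 1, 3, 4 and 9 at week 24, against 10.44, 12.23, 9.21 and 9.18 at week 0. SLC25A33 fell by 1.72 (SE 0.53, adjusted p = 0.0380), with 10.10, 11.20, 10.25 and 9.83 at week 0. For both genes every dog was lower at week 24. Dogs 1 and 3 at week 0 were arrays with muscle transcripts, and without all such arrays the changes were -1.17 (adjusted p = 0.492) and -0.85 (adjusted p = 0.793).

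SLC25A26 fell by 0.98 (SE 0.31, adjusted p = 0.0474), at 7.42, 7.70, 7.17 and 7.56 in control dogs 1, 3, 4 and 9 at week 24, against 8.53, 8.58, 8.31 and 8.58 at week 0. SLC25A27 rose by 1.05 (SE 0.33, adjusted p = 0.0425), at 6.20, 6.03, 6.10 and 5.75 at week 24, against 4.85, 5.29, 4.42 and 4.93 at week 0. Both moved in the same direction in all 4 dogs. SLC25A4 and SLC25A30 were also lower in all 4 dogs, and SLC25A6, SLC25A37, SLC25A40 and SLC25A46 higher, without a call in the main fit. The share of all tested probe sets that moved 1 way in all 4 dogs was not computed. With the actin covariate the values were -0.45 for SLC25A26 and 0.43 for SLC25A27, and neither passed. With the dog as a fixed replicate block SLC25A26 was at -1.03 and did not pass (adjusted p = 0.0518). The SLC25A26 change was not confined to control dogs, since its second probe set passed the threshold in ad libitum dogs for week 24 against week 0. SLC25A3 had a change of -0.43 (adjusted p = 0.0523), with all 4 dogs lower at week 24. SLC25A36, SLC25A16 and SLC25A37 had changes of 0.71, 0.72 and 0.39 that did not pass.

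The count of 4 in control dogs was 0 without control dog 3 or 9, 1 without control dog 1 or ad libitum dog 6 or 7, and 2 without control dog 4. It was 0 without the arrays with muscle transcripts and 0 with the actin covariate. The shares of all tested probe sets in these settings are not given here. Among the 20 tested partners, 5 were called lower in control dogs at week 24, namely GPD1, MPC1, MPC2, VDAC2 and MTCH2, where 4.71% of all tested probe sets were called lower. The median change of the 20 was -0.60, against 0.03 for all tested probe sets. Of the 10 tested import genes 1 was called, TIMM10B, at -1.02 (adjusted p = 0.0113). Values of these list genes without the arrays with muscle transcripts or with the actin covariate are not given here.

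**Figure D4:**
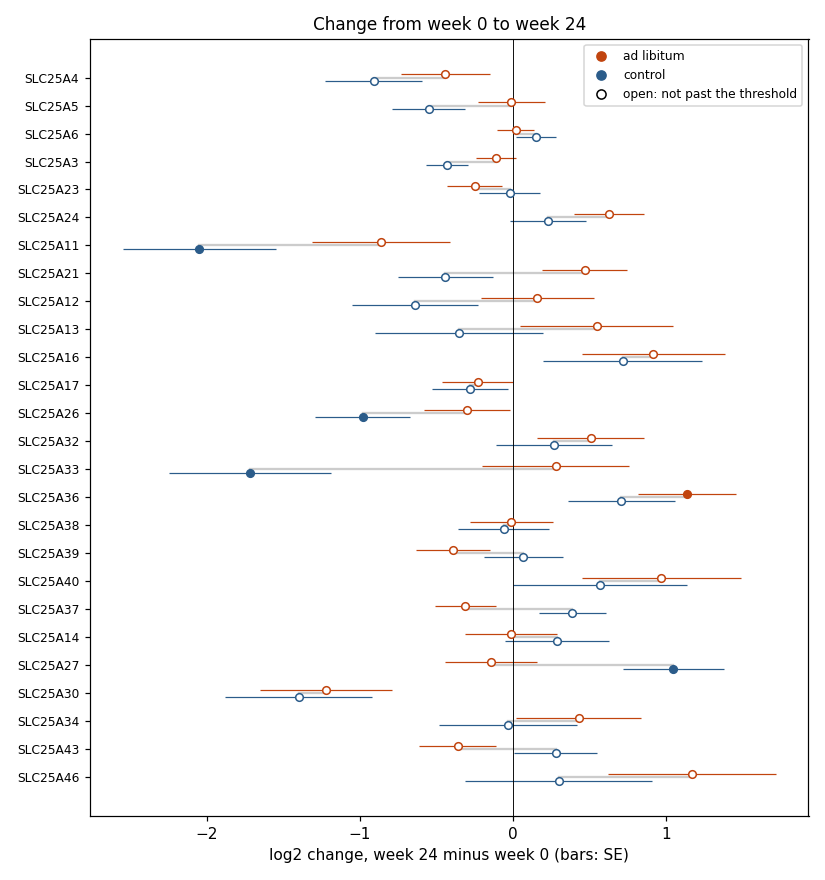
Fitted log2 change, week 24 minus week 0, of the 26 tested carriers in ad libitum dogs (orange) and control dogs (blue), with bars of 1 SE. Filled circles passed the threshold, which were SLC25A36 in ad libitum dogs and SLC25A11, SLC25A26, SLC25A27 and SLC25A33 in control dogs.

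Between weeks 0 and 12, all 5 batches held arrays of several weeks. In ad libitum dogs SLC25A30, an uncoupling protein-like carrier, fell by 1.74 at week 12 (SE 0.44, adjusted p = 0.0477), the 1 carrier called, where 0.802% of all tested probe sets were called and 0.392% were called lower. It measured 10.28, 8.28, 8.73, 9.88 and 8.96 in ad libitum dogs 2, 5, 6, 7 and 8 at week 12, against 10.31, 10.33, 10.88, 10.86 and 11.89 at week 0. All 5 dogs were lower at week 12, dog 2 by 0.03 and dog 8 by 2.93. In control dogs the change was -0.02 (SE 0.50), and the feeding effect at week 12 was -1.72 (SE 0.69, adjusted p = 0.749). The call was lost without any 1 of ad libitum dogs 2, 5, 6, 7 and 8 or control dogs 1, 3 and 9, where the change was -1.41 to -2.04. It was also lost without the arrays with muscle transcripts (-1.94, adjusted p = 0.294), which included 3 of the 5 ad libitum arrays of week 0. The adjusted p was 0.113 with no filter on dim probe sets, 0.0616 after a median shift and 0.0509 after quantile normalization. At weeks 4 and 8 limma called 0 carriers in ad libitum dogs, against 0.498% and 6.73% of all tested probe sets. In control dogs at weeks 4, 8 and 12 it also called 0, against 0.00441%, 0% and 0% of all. An unadjusted p under 0.05 was reached by 1 and 2 carriers in ad libitum dogs at weeks 4 and 8, against 9.63% and 25.1% of all. In control dogs it was reached by 6, 1 and 4 carriers at weeks 4, 8 and 12, against 24.1%, 1.42% and 17.8% of all.

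Joint tests of weeks 4, 8 and 12 against week 0 called 0 carriers in ad libitum dogs, against 1.59% of all tested probe sets, and 0 in control dogs, against 0% of all. An unadjusted p under 0.05 was reached by 5 carriers in ad libitum dogs and by 7 in control dogs, against 21.3% and 20.2% of all.

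Several carriers had different medians on the arrays with and without muscle transcripts. SLC25A12, the aspartate/glutamate carrier of muscle and brain, had a median of 9.56 on the 10 arrays with muscle transcripts and 9.00 on the other 35. Its 4 highest values, 10.88 to 12.08, were on 4 arrays with muscle means of 13.04 to 14.42, control dogs 1 and 3 and ad libitum dog 7 at week 0 and control dog 4 at week 8. SLC25A4 had medians of 14.43 with muscle transcripts and 14.02 without, and SLC25A11 of 9.75 with and 9.21 without. SLC25A46 had medians of 8.81 with and 8.25 without. SLC25A5 went the other way, at 11.70 with and 12.20 without, and so did SLC25A6, at 14.84 with and 15.04 without. Also lower with muscle transcripts were SLC25A17 (9.52 and 10.13), SLC25A16 (6.49 and 6.97) and SLC25A13 (5.98 and 6.44). By rank over the 45 arrays, SLC25A5 and SLC25A6 had Spearman correlations of -0.04 and -0.05 with the muscle mean. Those of SLC25A11, SLC25A4, SLC25A12 and SLC25A46 were 0.56, 0.48, 0.36 and -0.20. Pearson correlations were -0.51 for SLC25A5 and -0.59 for SLC25A6. For SLC25A11, SLC25A4, SLC25A12 and SLC25A46 they were 0.49, 0.53, 0.79 and 0.23. Of the 26 carriers, 11 had a higher median on the arrays with muscle transcripts and 15 a lower one. The same count over all tested probe sets was not made, and 5 of the 10 arrays were week-0 arrays. The part of muscle tissue in the differences was not tested beyond the values given with and without these arrays.

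**Figure D5:**
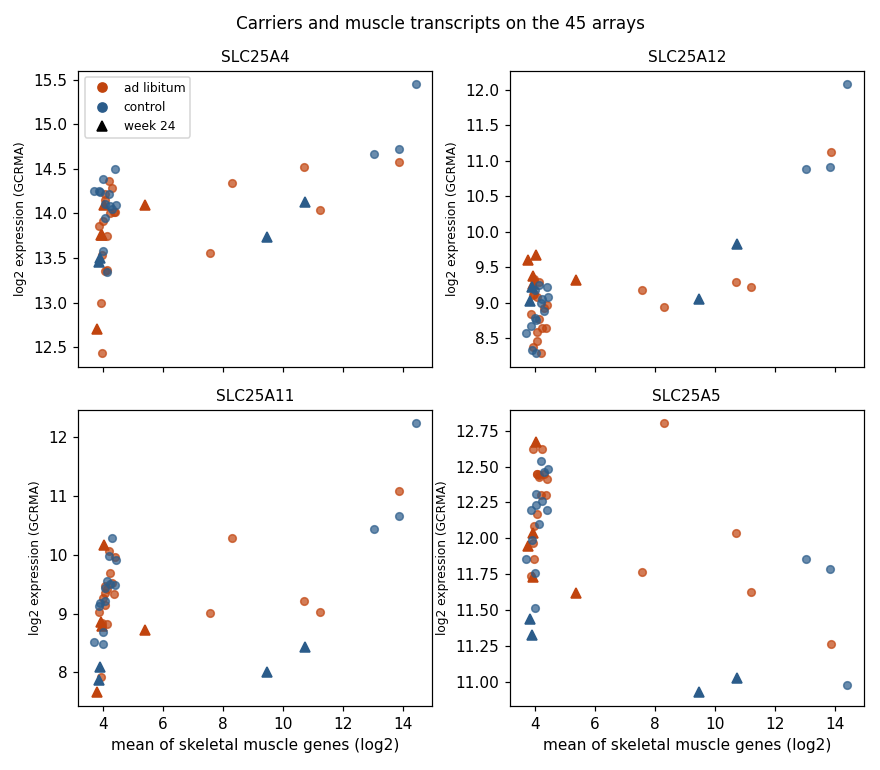
GCRMA log2 expression of SLC25A4, SLC25A12, SLC25A11 and SLC25A5 against the mean of 23 skeletal muscle genes on the 45 arrays. Ad libitum dogs are orange, control dogs blue, and triangles are week 24. SLC25A12 exceeds 10 on only 4 arrays, all with muscle means of 13.04 or more.

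Ad libitum dog 5 differed from its group at week 24. It was the lowest of the 5 for 11 of 26 carriers and the highest for 5, including SLC25A27. Its adipocyte mean was 11.41, against 13.39 to 13.76 in the other ad libitum dogs. Its macrophage mean was 10.18, against 8.13 to 9.17, and its T cell mean 5.13, against 3.19 to 4.20. Its fibroblast mean was 14.72, against 13.31 to 13.85, and its actin 3' minus 5' value 4.47, against 2.37 to 4.10. Ad libitum dog 2 was the highest of its group for 15 carriers and had the highest adipocyte mean, 13.76, and the lowest actin value, 2.37, while the control dogs had adipocyte means of 11.34 to 12.56. The part of cell composition in the week-24 differences was not tested, and the values with the actin covariate are given with the genes.

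Over the 45 arrays, which share 9 dogs and 6 batches, the 325 pairs of tested carriers had a median Pearson correlation of 0.02, and 9 pairs were above 0.7. The highest was between SLC25A40 and SLC25A46, at 0.94 on all arrays and 0.95 on the 35 without muscle transcripts. SLC25A32 correlated with SLC25A46 at 0.85 and with SLC25A40 at 0.82, and SLC25A3 with SLC25A4 at 0.76. The lowest was between SLC25A26 and SLC25A40, at -0.78. SLC25A38 correlated with SLC25A40 at -0.74, and SLC25A43 with SLC25A46 at -0.73. The same values for pairs of other genes are not given here. These correlations describe the arrays, which are not independent samples.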

How the data were processed

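Total RNA of each sample was extracted with Trizol and labelled with biotin by a 3' one-cycle method, per the labels' protocols. The authors deposited log2 expression values made with GCRMA, 1 per probe set, per the submitters' processing notes, which name no version. The log base is read from the values, which run from 0.42 to 17.51, with array medians of 3.60 to 3.83. Any batch correction by the authors is not given in the sources used here. Symbols are those of GEO's annotation of the array.

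Of 42924 probe sets, without 111 array controls, 22690 (52.9%) had log2 values above 4 on at least 4 of 45 arrays and were tested. In R 4.3.3, limma 3.58.1 with statmod 1.5.0 fitted 10 means, 1 per group and week, and a term for batches 1 to 5. Batch 6 was week 24 only and had no term. The dog, the labels' animal id, was a random block (correlation 0.00562), since the same animals were sampled at every week. Residual degrees of freedom were 31. All 22690 p-values of a contrast were adjusted together by Benjamini and Hochberg's procedure, and an adjusted p under 0.05 counted as past the threshold. The code was tested on simulated data.

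The members and lists were chosen with earlier results of these data known. Named in the text are carriers past the threshold, in a comparison between groups with fewer than 3 such carriers also 3 per sign by lowest p, and up to 4 of each sign in the changes at week 24. SLC25A3, SLC25A4, SLC25A5, SLC25A6, SLC25A11, SLC25A12 and SLC25A13 are named in any case. Members named beyond this were chosen after their values were seen. An array was called one with muscle transcripts above a muscle mean of log2 7. The number of arrays limits the precision. Alternatives covered the filter, normalization, floor, variance model, weights, batch, block, covariates, probe sets, single weeks and leaving out arrays or dogs. No 2 arrays held identical values, and sequences of the carriers were not used here.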

Additional observations from a re-analysis of the deposited data

Results flagged for a closer look

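In 8 of 100 groups of 4 or 5 dogs, 1 dog was far from the others by Dixon's test at the 95% level, where chance gives about 5. In ad libitum dogs at week 24, dog 5 stood apart for SLC25A4 at 12.70 (the others 13.76 to 14.10), for SLC25A27 at 6.33 (the others 4.53 to 4.90) and for SLC25A43 at 8.08 (the others 6.76 to 7.12). In ad libitum dogs at other weeks, SLC25A30 was high in dog 7 at week 4, at 11.19 (the others 9.71 to 10.04), and SLC25A27 was low in dog 8 at week 8, at 4.34 (the others 4.63 to 4.74). SLC25A12 was high in dog 7 at week 0, at 11.13 (the others 8.84 to 9.23), on an array with muscle transcripts. In control dogs at week 8, the array labelled dog 9, which matched dog 5 in the identity check, was high for SLC25A26 at 9.12 (the others 8.49 to 8.57) and for SLC25A34 at 4.35 (the others 2.73 to 2.85).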

How the results depend on the processing

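At week 24 the count of 3 carriers between the groups became 5 after quantile normalization, 9 with array weights, 0 without the arrays with muscle transcripts, 0 with the actin covariate, 0 with the 9 arrays of that week alone and 5 with any tested probe set of a gene, and 0 to 9 when 1 dog was left out. Array weights raised the counts of 0 to 4 at week 12, 1 at week 8, 4 for the feeding effect at week 24, 7 for the joint test of feeding effects, 10 for the joint test in ad libitum dogs and 4 for that in control dogs. Leaving out 1 dog gave 0 to 2 at week 8, 0 to 3 in the joint test of feeding effects, 0 to 1 in the joint test of ad libitum dogs and 0 to 3 in that of control dogs, and with no filter the joint test of ad libitum dogs called 1. At weeks 4 and 0 and for the averaged feeding effect the count was 0 under every alternative run. For these counts and the counts below, the shares of all tested probe sets called under each alternative are not given here.

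For week 24 against week 0, the count of 1 in ad libitum dogs became 0 with no filter, 0 without the arrays with muscle transcripts, 2 without the week-8 arrays labelled dogs 5 and 9, 3 with any probe set and 0 to 1 with 1 dog left out. The count of 4 in control dogs became 1 with no filter, 8 with array weights, 0 without the arrays with muscle transcripts, 2 with the muscle covariate, 0 with the actin covariate, 2 without those week-8 arrays, 7 with any probe set and 0 to 6 with 1 dog left out. With the dog as a fixed replicate block these counts were 0 and 5. Of the 5 in control dogs, 3 were shared, with SLC25A26 lost and SLC25A4 and SLC25A30 gained. Without a replicate block the count between groups at week 24 was 3, the same genes.

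Signs turned for SLC25A4, SLC25A5, SLC25A6 and SLC25A12, none of them past the threshold where this happened. SLC25A12 was -0.43 at week 4 without the batch term and -0.43 with that week alone. At week 0, SLC25A5 was -0.10 with array weights, -0.15 without the arrays with muscle transcripts and -0.01 to 0.46 with 1 dog left out. SLC25A12 was 0.06 without those arrays and -1.06 to 0.21 with 1 dog left out, and its averaged feeding effect was -0.01 and -0.30 to 1.05 in the same settings. At week 24, SLC25A4 was 0.03 after a median shift, 0.18 with array weights, 0.24 without the arrays with muscle transcripts, 0.27 with the muscle covariate, and -0.13 to 0.22 with 1 dog left out, above 0 without dog 3 (0.12) or 5. SLC25A6 was 0.04 after a median shift, 0.02 after quantile normalization and -0.09 to 0.04 with 1 dog left out. The cause of these shifts was not tested. The list counts without muscle arrays and with the actin covariate were chosen after seeing the data. Values near log2 4 are close to background, which limits SLC25A21, SLC25A23, SLC25A27 and SLC25A34. It also limits the regulators ESRRA, PPARGC1A and PPARGC1B.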
